A study of Homo sapiens with 15 samples.

Results

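The 30 genes described here encode enzymes of cholesterol synthesis and fatty acid synthesis, the regulators that set their level, and the proteins that move cholesterol out of or around the cell. They were chosen by name from the 60286 genes of one combined count table, and all 30 passed the filter on low counts that left 17198 genes to be tested. The table came from THP-1, a human monocytic leukemia line, labelled wild type (WT) in every group. Cells given PBS formed the negative control (NC, n = 3 libraries). The other groups received bacterial extracellular vesicles (BEVs), the membrane particles that bacteria shed. *E. coli* BEVs were given at 1 μg/mL after isolation by ultracentrifugation (EUC, n = 3) or by precipitation with ε-poly-L-lysine (EPL, n = 3). *S. aureus* BEVs were given at 10 μg/mL after the same isolations (SUC and SPL, n = 3 each). Species and dose changed together, so their parts in a difference between *E. coli* and *S. aureus* BEVs cannot be told apart. The labels give Day 0 as the time, while the methods of the study give an incubation of 6 h. The methods describe wells of culture plates, in triplicate for a group, and do not say whether the 3 libraries came from separate experiments, so the p-values measure only the spread between these libraries, which may be technical.

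Cells build cholesterol from acetyl-CoA through the mevalonate pathway, which ends in farnesyl pyrophosphate, and then through the sterol branch, which runs from squalene to cholesterol. Fatty acids are built from the same acetyl-CoA. The SREBP transcription factors switch on both sets of enzymes when sterol in the endoplasmic reticulum is low, and INSIG1 holds them back when sterol is plentiful. The liver X receptor (LXR), in which NR1H3 encodes the form common in macrophages, responds to oxidised sterols and switches on cholesterol export by ABCA1 and ABCG1, the ubiquitin ligase MYLIP, and SREBF1 itself. Macrophages and monocytes are known to change their lipid handling when bacterial products reach them.

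Between 14399421 and 16637345 reads were counted per library. Levels are given as CPM, read counts per library scaled to a common library size after TMM normalization, and levels of different genes are compared only as CPM per kilobase of annotated exon. Of 10 monocytic marker genes fixed for the check, 9 could be tested, and their summed level was 2429 to 2466 CPM in NC and 2990 to 3674 CPM in the BEV groups. Its members differed: SPI1 went from 456 to 487 CPM in NC to 896 to 1388 CPM in the BEV groups, while MPO went from 9.85 to 10.5 CPM to 3.07 to 5.50 CPM, CD33 from 80.2 to 85.2 CPM to 47.9 to 67.2 CPM and CEBPA from 415 to 424 CPM to 259.9 to 346 CPM. Of 18 markers of T, B, erythroid, epithelial, endothelial and fibroblast cells, 13 lay under 1 CPM in every library, and the 3 erythroid genes had no count. PECAM1, which monocytes also express, was the highest of these markers, at up to 308 CPM. The 3 fibroblast markers summed to 0.639 to 0.940 CPM in NC and to 2.06 to 6.95 CPM in the BEV groups, with 0 to 1 counts of DCN per library in NC and 7 to 30 in the BEV groups. The part of these marker shifts in the results was not tested. The inflammatory genes IL1B, CXCL8, TNF and NFKBIA, the check of stimulation, summed to 84.6 to 93.7 CPM in NC and 2329 to 5399 CPM in the BEV groups. In bulk RNA, a lower level per cell and a smaller share of cells that express a gene cannot be told apart.

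The libraries EUC replicate 3, EPL replicate 1 and SUC replicate 3 stood apart from the rest of their groups. In each library, the median deviation from the group mean was taken over the longest and over the shortest 20% of 9807 well expressed genes. The difference of those medians, a length index on the log2 scale, was -0.41, -0.31 and -0.33 in these libraries and between -0.08 and 0.32 in the other 12. ACACA, ABCA1, SCD, SREBF2 and MYLIP lay below their group mean in all 3 of these libraries, and PMVK, EBP, MVD and FDFT1 were among the members above it in all 3. SREBF1 (8234 bases of exon) and MVK (9018 bases) also lay above their group mean in all 3, and MYLIP, which lay below it, has 3072 bases. These lengths join all annotated exons of a gene and can exceed the length of its transcripts. The part of length in these directions was not tested. Over the 15 libraries, the deviation of a member from its group mean followed the index with r = 0.97 for ACACA (13022 bases of exon) and r = 0.96 for ABCA1 (11343 bases). The deviation ran the other way for PMVK (1002 bases, r = -0.98) and MVD (r = -0.93). These correlations all rest on the same 15 libraries and carry no test. The part of the index in the results was not tested. The counts are given below with and without these libraries, as are the values of some members.

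**Figure D1:**
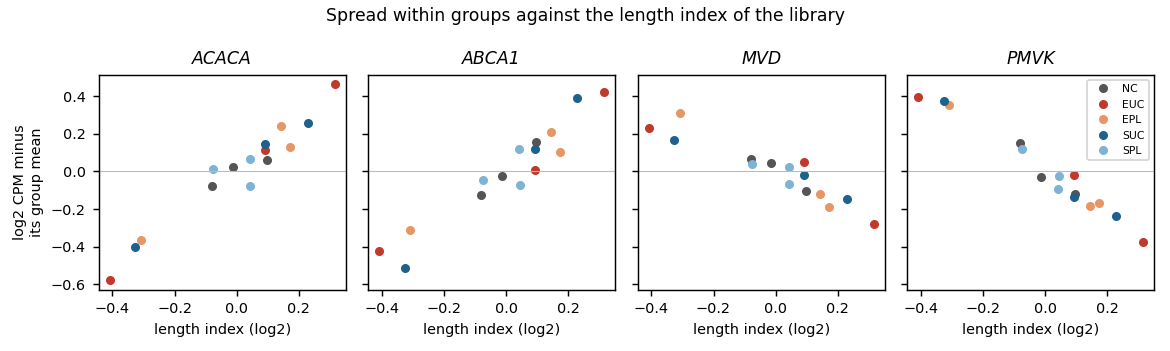
Deviation of ACACA, ABCA1, MVD and PMVK from the group mean (log2 CPM, vertical axis) against the length index of the library (log2, horizontal axis), 1 point for each of the 15 libraries. ACACA and ABCA1 are low and MVD and PMVK high in the libraries with an index of -0.41, -0.33 and -0.31, which are EUC replicate 3, SUC replicate 3 and EPL replicate 1.

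The gene starts were read for motifs of the regulators above. RefSeq promoter windows (build GRCh38.p14, 250 bases before to 50 after the RefSeq start, which can differ from the gene positions given below) were matched for 25 of the 30 genes, which have 37 windows in all, and a gene was counted when any of its windows held the motif. Both strands were searched for the sterol response core TCACCCCAC, which SREBP binds, for the looser form TCACNCCAC, for the E-box TCACGTGA, for the CCAAT box and the GC box GGGCGG, where the SREBP partners NF-Y and SP1 bind, and for the LXR element of 2 AGGTCA copies spaced by 4 bases. The looser sterol form contains the strict one, and none of the other motifs contains another. A CCAAT box was found for 21 of the 25 genes (84%), against 39.7% of all 27305 genes with a window and 42.5% of the tested ones. A GC box was found for 24 of the 25 (96%), against 48.3% of all genes and 74.5% of the tested ones. Both forms of the sterol core were found in SREBF2 only (0.535% of all genes hold the strict form and 1.39% the looser one), and the E-box in INSIG1 only (1.18%). The exact letters of the LXR element were found for none of the 25 genes. Only 7 of all 27305 genes hold them (0.0256%), so a match among 25 genes was unlikely from the start. Looser forms of this element were not searched, so the members, ABCA1 among them, are not shown to lack one. A match is a description of letters and not evidence of binding. The 250 bases before the start are shown for 6 members whose levels are described below: the regulators SREBF2 and INSIG1, the sterol carrier STARD4, which rose in every BEV group, and TM7SF2, SCD and MYLIP, which fell in every BEV group. Capitals mark CCAAT boxes, the sterol core in SREBF2 and the E-box in INSIG1, on either strand, and each sequence runs 5′ to 3′ on the strand of the gene. Counting back from -1 at the base before the start, the sterol core of SREBF2 begins at -133, close to its CCAAT box at -106. The windows are chr22:41832855-41833104 (plus strand) for SREBF2, chr7:155297628-155297877 (plus) for INSIG1, chr5:111512536-111512785 (minus) for STARD4, chr11:65111622-65111871 (plus) for TM7SF2, chr10:100346983-100347232 (plus) for SCD and chr6:16128836-16129085 (plus) for MYLIP.
SREBF2: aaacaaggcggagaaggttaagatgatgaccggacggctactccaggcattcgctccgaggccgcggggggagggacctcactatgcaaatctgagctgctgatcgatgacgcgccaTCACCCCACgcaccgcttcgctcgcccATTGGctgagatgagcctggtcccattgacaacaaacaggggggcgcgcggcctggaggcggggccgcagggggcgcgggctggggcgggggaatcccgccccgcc
INSIG1: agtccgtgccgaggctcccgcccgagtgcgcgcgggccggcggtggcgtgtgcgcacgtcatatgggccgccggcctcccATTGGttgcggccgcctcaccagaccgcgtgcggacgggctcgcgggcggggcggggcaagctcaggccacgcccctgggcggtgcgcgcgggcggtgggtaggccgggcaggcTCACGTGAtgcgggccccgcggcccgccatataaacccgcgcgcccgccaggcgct
STARD4: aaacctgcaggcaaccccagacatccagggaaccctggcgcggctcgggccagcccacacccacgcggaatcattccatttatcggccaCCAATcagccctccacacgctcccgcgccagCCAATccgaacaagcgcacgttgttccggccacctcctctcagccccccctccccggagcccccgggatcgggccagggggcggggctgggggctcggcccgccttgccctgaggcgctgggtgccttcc
TM7SF2: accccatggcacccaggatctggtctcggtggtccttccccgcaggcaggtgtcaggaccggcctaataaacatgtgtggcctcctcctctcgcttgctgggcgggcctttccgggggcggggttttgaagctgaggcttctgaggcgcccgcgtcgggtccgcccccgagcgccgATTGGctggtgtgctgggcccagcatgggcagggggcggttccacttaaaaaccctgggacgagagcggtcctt
SCD: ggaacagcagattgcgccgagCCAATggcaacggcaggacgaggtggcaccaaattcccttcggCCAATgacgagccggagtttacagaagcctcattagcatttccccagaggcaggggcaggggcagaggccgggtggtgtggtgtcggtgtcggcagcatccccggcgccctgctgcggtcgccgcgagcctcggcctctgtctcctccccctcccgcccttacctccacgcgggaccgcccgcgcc
MYLIP: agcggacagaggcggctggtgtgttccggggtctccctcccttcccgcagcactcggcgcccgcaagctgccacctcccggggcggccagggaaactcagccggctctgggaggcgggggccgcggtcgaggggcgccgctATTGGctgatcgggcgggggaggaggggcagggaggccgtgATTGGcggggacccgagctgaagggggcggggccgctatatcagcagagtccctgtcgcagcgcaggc

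More of the 30 genes fell than rose in each BEV group, and the genes that fell were led by the fatty acid enzymes SCD and FASN, the regulator SREBF1, the sterol reductase TM7SF2 and MYLIP. In EUC 4 members rose and 11 fell at an adjusted p of at most 0.01 (edgeR quasi-likelihood test, Benjamini-Hochberg adjustment over all 17198 genes), against 16.5% of all tested genes that rose and 14% that fell. The members that fell made up 36.7% of the 30 and those that rose 13.3%. In EPL the counts were again 4 and 11, against 16% and 13.2% of all tested genes. In SUC 1 member rose and 7 fell (23.3% of the 30), against 12.4% and 9.15% of all tested genes. In SPL 3 rose and 8 fell (26.7% of the 30), against 13.3% and 10.6%. The median log2 fold change of the 30 members was -0.28 for EUC, -0.26 for EPL and -0.14 for both SUC and SPL, where that of all tested genes lay between -0.01 and 0.01. All 4 comparisons share the 3 NC libraries.

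A set of 6 members, FASN, MYLIP, NR1H3, SCD, SREBF1 and TM7SF2, fell in all 4 BEV groups. STARD4 rose in all 4, and 15 members were called by edgeR in none. DESeq2 called 3 of those 15, SREBF2 in EUC, EBP in EPL and HMGCS1 in SPL. ABCA1, ACACA and IDI1 were called by edgeR in both *E. coli* groups and in neither *S. aureus* group, though DESeq2 also called ABCA1 and ACACA in SUC, and no member was called in opposite directions. That pattern of calls is not a test of a difference between species, which is given separately. The share of all tested genes with each of these joint patterns was not counted. The joint counts therefore describe the members and are not shown to be particular to them. A differentially expressed gene (DEG) also had to reach a log2 fold change of 1 or -1. EUC and EPL each had 1 DEG that rose (ABCA1), against 9.43% and 9.38% of all tested genes. Each had 3 DEGs that fell (FASN, SCD and TM7SF2), against 5.75% and 5.15%. SUC had 1 DEG that fell, SCD (3.06% of all tested genes), and none that rose (6.82%). SPL had 4 that fell, MYLIP, SCD, SREBF1 and TM7SF2 (3.7%), and none that rose (7.76%). SCD was the one member past the DEG threshold in all 4 groups.

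Some of these counts depended on single libraries. Without EUC replicate 3, EPL replicate 1 and SUC replicate 3 together, the counts that rose and fell were 4 and 16 in EUC, 5 and 16 in EPL, 4 and 12 in SUC, and 6 and 10 in SPL, with every earlier call kept. Calls over all genes grew in that fit too, from 5251 to 6681 in EUC and from 5026 to 6994 in EPL. They grew from 3697 to 5110 in SUC and from 4114 to 6181 in SPL, so the gain is not particular to the members. The count of members that rose in SPL was 1 without NC replicate 3, and the count that fell was 5 without NC replicate 2, NC replicate 3 or SPL replicate 3. The count that rose in SUC was 2 without EUC replicate 1, EUC replicate 3 or SUC replicate 3 and 3 without EPL replicate 1. The number of DEGs in SUC was 2 without NC replicate 1, NC replicate 3 or any 1 of the SUC libraries, and in EPL it was 2 without EPL replicate 3.

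**Figure D2:**
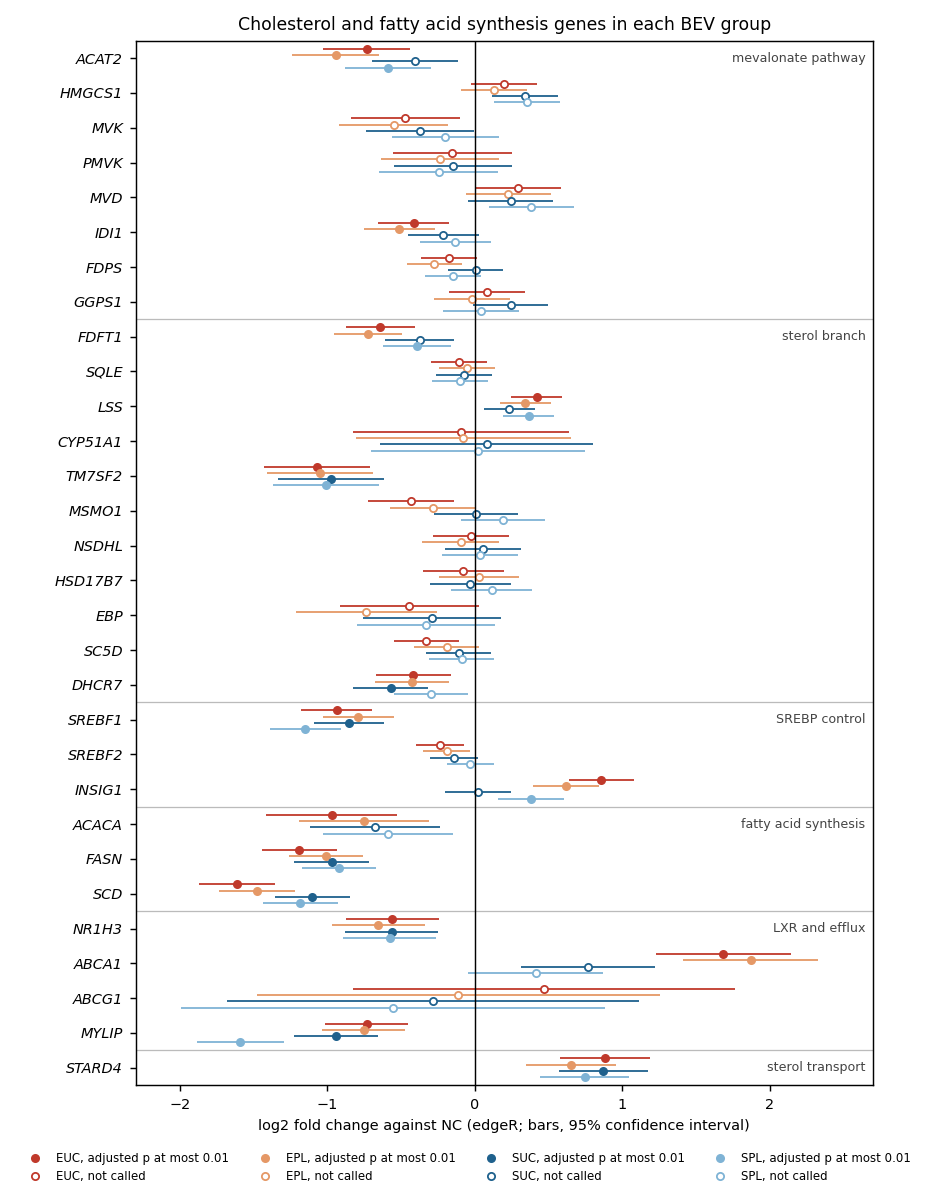
Log2 fold change of the 30 genes against NC in EUC, EPL, SUC and SPL, grouped by role, with 95% confidence intervals. Filled points passed an adjusted p of 0.01 and open points did not. SCD lies between -1.61 and -1.10 and FASN between -1.19 and -0.92, all filled, while ABCA1 lies at 1.69 and 1.87 in the *E. coli* groups and at 0.77 and 0.41, open, in the *S. aureus* groups.

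The summed level of the enzymes of fatty acid synthesis lay further below NC than that of any other role in each BEV group. The sum over ACACA, FASN and SCD was 189.9 ± 8.19 CPM per kilobase (SD, n = 3) in NC, 79.0 ± 15.1 (EUC), 89.3 ± 4.45 (EPL), 95.9 ± 11.0 (SUC) and 97.7 ± 2.7 (SPL). FASN supplied most of this sum and was the most abundant member per length in NC, at 138 ± 6.68 CPM per kilobase. PMVK and SCD followed at 43.9 and 43.2, and their order lies within the spread between libraries.

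SCD (chr10:100347233-100364826, plus strand, hg38, as are the gene positions that follow) encodes stearoyl-CoA desaturase, which puts the double bond into newly made saturated fatty acids. Its level was 234, 222 and 224 CPM in the NC libraries. The EUC libraries held 80.6, 75.4 and 66.3 CPM and the EPL libraries 62.6, 89.5 and 91.7 CPM. In SUC the values were 104, 117 and 95.8 CPM, and in SPL 98.9, 98.1 and 102 CPM. Every BEV library lay below every NC library, and every *E. coli* library below every *S. aureus* library. SCD was 3.06-fold lower in EUC (log2 fold change -1.61, SE 0.12, adjusted p = 1.04e-08) and 2.79-fold lower in EPL (-1.48, adjusted p = 3.17e-08). It was 2.15-fold lower in SUC (-1.10, adjusted p = 1.63e-06) and 2.27-fold lower in SPL (-1.18, adjusted p = 5.97e-07). The call stood in all 15 fits that left out 1 library, where the log2 fold change in EUC ranged from -1.68 to -1.54.

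FASN (chr17:82078338-82098294, minus strand) encodes fatty acid synthase, which builds palmitate. The NC libraries held 1357, 1265 and 1239 CPM. The EUC values were 669, 579 and 443 CPM and the EPL values 642, 658 and 619.6 CPM. The SUC values were 719.9, 680.0 and 569 CPM and the SPL values 707, 662 and 669.7 CPM. The highest BEV library lay far below the lowest NC library. FASN was 2.28-fold lower in EUC (log2 fold change -1.19, SE 0.12, adjusted p = 3.63e-07) and 2.01-fold lower in EPL (-1.01, adjusted p = 2.74e-06). The fold in SUC was 1.96 (-0.97, adjusted p = 6.11e-06) and in SPL 1.89 (-0.92, adjusted p = 9.56e-06). Without the 3 libraries that stood apart the log2 fold changes were -1.05, -1.01, -0.87 and -0.92 in EUC, EPL, SUC and SPL. With each gene's length and GC content as an offset, they were -0.85, -0.76, -0.60 and -0.66, past the adjusted p but not past the DEG threshold.

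ACACA (chr17:37084992-37406836, minus strand) encodes acetyl-CoA carboxylase, which makes the malonyl-CoA that fatty acid synthase uses. It averaged 112 ± 5.50 CPM in NC, 57.2 ± 19.5 (EUC), 66.7 ± 14 (EPL), 70.1 ± 16 (SUC) and 74.5 ± 3.73 (SPL), and no BEV library overlapped NC. ACACA fell in EUC (log2 fold change -0.97, SE 0.21, adjusted p = 0.00121) and in EPL (-0.75, adjusted p = 0.00823). The values in SUC (-0.68, adjusted p = 0.0194) and SPL (-0.59, adjusted p = 0.0369) did not pass. The EPL call was lost in 10 of the 15 fits without 1 library, those without any NC or SPL library, EUC replicate 2, EPL replicate 1 or 3, or SUC replicate 2, with adjusted p up to 0.042. Without the 3 libraries with a low length index, the values were -0.73, -0.59, -0.50 and -0.58, and all 4 passed.

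Among the regulators of SREBP activity, SREBF1 fell in every BEV group while its paralog SREBF2 did not pass the edgeR test in any. SREBF1 (chr17:17810399-17837002, minus strand) encodes the SREBP that chiefly drives fatty acid synthesis. It stood at 78.6, 84.4 and 80.4 CPM in NC. In EUC it was at 40.1, 42.8 and 44.3 CPM and in EPL at 55.6, 43.5 and 41.6 CPM. The SUC libraries held 41.5, 44.9 and 48.4 CPM and the SPL libraries 31.7, 36.7 and 41.4 CPM. No BEV library overlapped the NC range. The log2 fold change was -0.94 in EUC (SE 0.11, 1.91-fold lower, adjusted p = 3.46e-06), -0.79 in EPL (1.73-fold, adjusted p = 2.35e-05) and -0.85 in SUC (1.81-fold, adjusted p = 1.49e-05). It was -1.15 in SPL (2.22-fold, adjusted p = 4.41e-07). With length and GC content as offsets these values were -0.64, -0.60, -0.55 and -0.96.

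SREBF2 (chr22:41833105-41907306, plus strand), whose product chiefly drives cholesterol synthesis and whose promoter holds the sterol core printed above, averaged 307 ± 11.0 CPM in NC, 261 ± 23.3 (EUC), 269 ± 7.56 (EPL), 279 ± 14.2 (SUC) and 301 ± 8.46 (SPL). Its log2 fold changes were -0.24 (adjusted p = 0.0193), -0.19 (0.058), -0.14 (0.185) and -0.03 (adjusted p = 0.81) in that order of BEV groups. In EUC DESeq2 called SREBF2 (adjusted p = 0.00828), as did edgeR without EUC replicate 1 (adjusted p = 0.00792). Per kilobase of exon, SREBF2 was at 38.2 CPM in NC and SREBF1 at 9.85 ± 0.36 CPM.

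INSIG1 (chr7:155297776-155310235, plus strand), the sterol-dependent anchor that keeps SREBP in the endoplasmic reticulum, moved the other way from SREBF1 in 3 of the 4 BEV groups. It stood at 69.8, 64.8 and 67.6 CPM in NC. The EUC values were 128, 108 and 130.5 CPM and the EPL values 117, 101 and 92.3 CPM. In SUC it was at 67.2, 64.6 and 73.9 CPM and in SPL at 83.5, 81.1 and 98.9 CPM. The SUC values overlapped NC, and the other BEV groups lay above NC. INSIG1 rose 1.81-fold in EUC (log2 fold change 0.86, SE 0.11, adjusted p = 3.85e-06), 1.53-fold in EPL (0.62, adjusted p = 0.000145) and 1.30-fold in SPL (0.38, adjusted p = 0.00926). In SUC the log2 fold change was 0.02 (adjusted p = 0.89). The SPL call was lost in 8 of the 15 fits without 1 library, those without any NC or SPL library, EPL replicate 2 or SUC replicate 1, with adjusted p up to 0.0578.

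**Figure D3:**
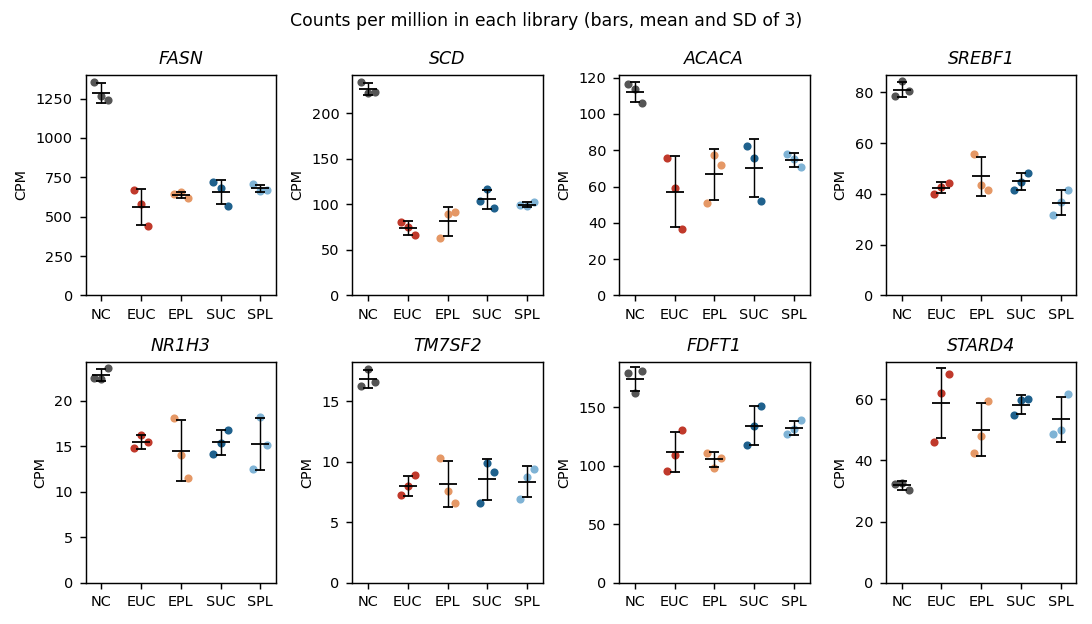
Level of FASN, SCD, ACACA, SREBF1, NR1H3, TM7SF2, FDFT1 and STARD4 in each library (CPM, vertical axes starting at 0), with points for libraries and bars for the mean of each group. STARD4 lies above NC in every BEV library, from 42.6 CPM upwards against at most 32.8 CPM in NC, and the other genes lie below NC.

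In the mevalonate pathway, 2 of 8 genes fell in EUC and in EPL, none was called in SUC, and 1 fell in SPL; none rose. The share of all tested genes that fell was 14% in EUC, 13.2% in EPL and 10.6% in SPL, and the single gene in SPL is near that share. In SUC, 3 of the 8 (ACAT2, HMGCS1 and MVK) had an unadjusted p under 0.05, and DESeq2 called 0. The share of all tested genes under that unadjusted p was not counted. The summed level of the 8 genes was 97.5 ± 5.05 CPM per kilobase in NC and between 83.1 ± 10.1 and 93.4 ± 13.6 in the BEV groups (no test was run on sums). ACAT2, the cytosolic thiolase that joins acetyl-CoA units at the head of the pathway, fell from 19.8 ± 1.55 CPM in NC to 11.9 ± 1.79 in EUC (log2 fold change -0.73, adjusted p = 0.00038) and 10.3 ± 0.29 in EPL (-0.94, adjusted p = 3.48e-05). It also fell in SPL (-0.59, adjusted p = 0.00282), a call lost without NC replicate 2, NC replicate 3, SPL replicate 2 or SPL replicate 3 (adjusted p up to 0.0201), and had a value of -0.41 in SUC (adjusted p = 0.032). Its exons share 22.2% of their bases with other genes, among them SOD2 and TCP1 on the opposite strand, so its counts are uncertain. IDI1, the isomerase that interconverts the isoprene units, fell from 54.2 ± 1.31 CPM to 40.6 ± 6.68 in EUC (-0.42, adjusted p = 0.00757) and 38.0 ± 2.2 in EPL (-0.51, adjusted p = 0.00171). The EUC call of IDI1 was lost in 9 of the 15 fits without 1 library, those without any NC library, EUC replicate 1 or 2, EPL replicate 2, SUC replicate 2, or SPL replicate 1 or 2 (adjusted p up to 0.0438). Its EPL call was lost without EPL replicate 2 (adjusted p = 0.0121).

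The other 6 mevalonate genes did not pass the edgeR test in any group, apart from the alternative fits given below. HMGCS1, the HMG-CoA synthase that commits carbon to the pathway, had a mean of 38.0 ± 0.605 CPM in NC and 41.4 to 48.5 CPM in the BEV groups, and DESeq2 called it in SPL (log2 fold change 0.36, adjusted p = 0.00699). MVD, the decarboxylase that makes the first isoprene unit, had a mean of 48.6 ± 3.06 CPM in NC and 57.0 to 63.5 CPM in the BEV groups, and with length and GC offsets it passed in all 4 (log2 fold changes 0.57, 0.46, 0.51 and 0.61 in EUC, EPL, SUC and SPL). The mevalonate kinase MVK averaged 14.4 ± 1.90 CPM in NC and 9.81 to 12.5 CPM in the BEV groups, and PMVK, the kinase after it, 44 ± 4.23 CPM in NC and 37.2 to 39.8 CPM. FDPS, the farnesyl pyrophosphate synthase, averaged 46.6 ± 1.13 CPM in NC and 38.6 to 46.8 CPM in the BEV groups. GGPS1, which makes geranylgeranyl pyrophosphate for protein prenylation, stood at 12.5 ± 0.40 CPM in NC and at 12.3 to 14.8 CPM in the BEV groups. FDPS has near-identical pseudogene copies, and 41% of the exon bases of GGPS1 and 37.7% of those of HMGCS1 lie in other genes too, so these counts are uncertain. Without the 3 libraries that stood apart, the log2 fold changes of PMVK were -0.38, -0.43, -0.35 and -0.24 in EUC, EPL, SUC and SPL, and the first 3 passed (adjusted p = 0.00266, 0.000709 and 0.00585). In that fit MVK also passed in EUC and EPL, FDPS in EPL, HMGCS1 in EPL, SUC and SPL, and MVD in SPL. MVK passed in EPL without EUC replicate 3, and in EUC and EPL without SUC replicate 1. HMGCS1 passed in SUC and SPL without EPL replicate 1 and with length and GC offsets.

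The sterol branch did not move as one. Of its 11 genes, 1 rose and 3 fell in EUC and in EPL, 2 fell in SUC, and 1 rose and 2 fell in SPL. The shares of all tested genes that fell were 14%, 13.2%, 9.15% and 10.6% in these 4 groups, and those that rose lay between 12.4% and 16.5%. The summed level was 108 ± 1.54 CPM per kilobase in NC, 87.3 ± 9.08 (EUC), 86.2 ± 6.05 (EPL), 95.1 ± 8.29 (SUC) and 96.4 ± 4.09 (SPL).

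TM7SF2 (chr11:65111845-65116384, plus strand), a sterol reductase that acts after lanosterol, had the largest fall of the branch. It stood at 16.3, 17.7 and 16.6 CPM in NC. EUC gave 7.22, 8.01 and 8.87 CPM and the EPL libraries 10.3, 7.58 and 6.62 CPM. The SUC values were 6.63, 9.87 and 9.18 CPM and the SPL values 6.96, 8.76 and 9.38 CPM. The highest BEV library was below the lowest NC library. The gene was 2.1-fold lower in EUC (log2 fold change -1.07, SE 0.17, adjusted p = 6.83e-05), 2.07-fold in EPL (-1.05, adjusted p = 8.67e-05), 1.97-fold in SUC (-0.98, adjusted p = 0.000237) and 2.02-fold in SPL (-1.01, adjusted p = 0.00015). With length and GC offsets the values were -0.88, -0.85, -0.78 and -0.82.

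FDFT1, the squalene synthase at the entry to the branch, averaged 174 ± 10.3 CPM in NC, 112 ± 17.4 (EUC), 105 ± 6.58 (EPL), 134 ± 16.9 (SUC) and 133 ± 5.88 (SPL). It fell in EUC (log2 fold change -0.64, adjusted p = 0.000146), in EPL (-0.72, adjusted p = 4.41e-05) and in SPL (-0.39, adjusted p = 0.00983), and its SUC value was -0.37 (adjusted p = 0.0145). The SPL call was lost in 10 of the 15 fits without 1 library, those without any NC or SPL library, EUC replicate 2, EPL replicate 2 or 3, or SUC replicate 2, with adjusted p up to 0.0582. DHCR7, the last reductase before cholesterol, fell in EUC (-0.42, adjusted p = 0.00963), EPL (-0.43, adjusted p = 0.00849) and SUC (-0.57, adjusted p = 0.0014). DHCR7 lost its EUC call in 13 of the 15 fits without 1 library, all but those without EPL replicate 1 or 3 (adjusted p up to 0.0418). It lost its EPL call in 8, without any NC or SPL library or EPL replicate 2 or 3 (adjusted p up to 0.0493), and its SUC call without SUC replicate 2 (adjusted p = 0.0103).

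LSS, which closes squalene epoxide to lanosterol, was the gene of the branch that rose. It went from 39.2 ± 0.92 CPM in NC to 52.4 ± 4.13 in EUC (log2 fold change 0.42, adjusted p = 0.000475), 49.6 ± 3.36 in EPL (0.34, adjusted p = 0.00275) and 50.5 ± 0.24 in SPL (0.37, adjusted p = 0.00192). In SUC it was at 46.1 ± 2.23 CPM (0.23, adjusted p = 0.037). The EPL call was lost without NC replicate 3 or EPL replicate 1 (adjusted p up to 0.0168) and the SPL call without NC replicate 3 (0.013). SQLE, the squalene epoxidase that is often the slow step of the branch, lay between 94.9 and 121 CPM in all 15 libraries and was not called in any group.

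MSMO1 (chr4:165327667-165343164, plus strand), a sterol methyl oxidase, stood at 21.0, 19.6 and 22.7 CPM in NC. It was not called against NC by edgeR with all libraries and without offsets or a replicate block. The EUC libraries held 13.5, 14.8 and 18.6 CPM and the EPL libraries 20.1, 15.0 and 16.9 CPM. SUC gave 20.1, 20.9 and 22.6 CPM and the SPL libraries 23.3, 21.4 and 27.7 CPM. The EUC libraries lay below NC, while EPL and both *S. aureus* groups overlapped it. In EUC MSMO1 passed without EUC replicate 3 (log2 fold change -0.58, adjusted p = 0.00243) and with length and GC offsets (-0.54, adjusted p = 0.000569). It also passed in EUC with a replicate block. Without the 3 libraries that stood apart MSMO1 passed in EUC (-0.58, adjusted p = 0.000195) and in EPL (-0.40, adjusted p = 0.00518). Of the remaining enzymes of the branch, NSDHL, HSD17B7, EBP, SC5D and CYP51A1 were called by edgeR in no group. NSDHL and HSD17B7, which act with MSMO1 in removing methyl groups from the sterol ring, averaged 24.3 ± 2.73 and 11.9 ± 1.07 CPM in NC, and their BEV group means were 22.7 to 25.2 and 11.2 to 12.8 CPM. SC5D, the sterol desaturase, averaged 39.5 ± 1.36 CPM in NC and 31.5 to 37.2 CPM in the BEV groups. EBP, the sterol isomerase, averaged 11.8 ± 1.75 CPM in NC and 7.09 to 9.64 CPM in the BEV groups. In EPL EBP was called by DESeq2 (log2 fold change -0.73, adjusted p = 0.00728), and by edgeR without EUC replicate 1, EUC replicate 3 or SUC replicate 3. Without the 3 libraries that stood apart, edgeR called EBP in EUC, EPL and SUC. With length and GC offsets EBP passed in EUC and EPL. SC5D was called in EUC without the 3 libraries that stood apart (-0.37, adjusted p = 0.0018) and without EPL replicate 1. With all libraries, SC5D was called in EUC with length and GC offsets and with a replicate block. The counts of HSD17B7, which has a pseudogene copy, and of EBP, which shares 36.4% of its exon bases with other genes, are uncertain. CYP51A1, the lanosterol demethylase, had only 11 to 34 counts per library, and 74.1% of its exon bases lie in other genes. Its intervals against NC ran from -0.83 to 0.64 in EUC and were of like width in the other groups, so a change within them was not detectable at this depth.

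The LXR and export genes split. NR1H3 (chr11:47248300-47269033, plus strand), the LXR gene itself, averaged 22.8 ± 0.71 CPM in NC and 14.5 to 15.5 CPM in the BEV groups. NR1H3 fell in EUC (log2 fold change -0.56, SE 0.15, adjusted p = 0.00583), EPL (-0.65, adjusted p = 0.00196), SUC (-0.56, adjusted p = 0.00751) and SPL (-0.58, adjusted p = 0.00582). These calls were not kept in every fit that left out 1 library, though NR1H3 stayed below NC in all of them. The log2 fold change then ranged from -0.59 to -0.52 in EUC and from -0.84 to -0.51 in EPL. In SUC it ranged from -0.63 to -0.50 and in SPL from -0.72 to -0.44. With a replicate block, and with length and GC offsets, the SUC call was lost too. The EUC call was lost without any 1 of the NC or EUC libraries (adjusted p up to 0.0228) and the EPL call without EPL replicate 2 or 3 (up to 0.0142). The SUC call was lost without any NC library, EUC replicate 2, EPL replicate 2, SUC replicate 1 or 2, or SPL replicate 3 (adjusted p up to 0.0381), and the SPL call without any NC library or SPL replicate 1 or 3 (up to 0.0482).

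MYLIP (chr6:16129086-16148248, plus strand), an LXR target, encodes a ubiquitin ligase that sends lipoprotein receptors to the lysosome. It stood at 25, 21.3 and 19.7 CPM in NC. The values in EUC were 12.7, 14.5 and 12.4 CPM and the EPL values 11.2, 15.5 and 12.4 CPM. The SUC libraries held 11.2, 12.5 and 10.6 CPM and the SPL libraries 7.28, 6.63 and 8 CPM. All BEV libraries were below NC, and the SPL libraries were below all others. MYLIP was 1.66-fold lower in EUC (log2 fold change -0.73, SE 0.13, adjusted p = 0.000237), 1.69-fold in EPL (-0.75, adjusted p = 0.000188), 1.92-fold in SUC (-0.94, adjusted p = 3.04e-05) and 3.01-fold in SPL (-1.59, SE 0.14, adjusted p = 8.79e-08).

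ABCA1 (chr9:104781006-104928155, minus strand), the transporter that loads cholesterol onto lipid-poor apolipoprotein and is also an LXR target, moved against NR1H3 and MYLIP in the *E. coli* groups. It stood at 33.1, 29.2 and 27.2 CPM in NC. EUC gave 125, 93.5 and 69.4 CPM and the EPL libraries 86.9, 125 and 116 CPM. The values in SUC were 64.6, 53.5 and 34.5 CPM and the SPL values 43.1, 38.4 and 37.7 CPM. Every BEV library was above NC, and every *E. coli* library above every *S. aureus* library. ABCA1 rose 3.22-fold in EUC (log2 fold change 1.69, SE 0.22, adjusted p = 6.27e-06) and 3.66-fold in EPL (1.87, adjusted p = 2e-06). The values in SUC (0.77, 1.71-fold, adjusted p = 0.011) and SPL (0.41, 1.33-fold, adjusted p = 0.159) did not pass. The lowest value of EUC, EPL and SUC was in each case the library with the low length index, and without those 3 libraries the log2 fold changes were 1.87, 2.02, 0.99 and 0.42, all past the adjusted p. Per kilobase of exon, ABCA1 rose from 2.63 ± 0.26 CPM in NC to 8.45 ± 2.45 in EUC and 9.63 ± 1.74 in EPL. ABCG1, the other exporter, had 2 to 14 counts per library (0.132 to 0.92 CPM). Its interval against NC was -0.83 to 1.76 in EUC and -1.99 to 0.89 in SPL, and a change within such intervals was not detectable at this depth.

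STARD4 (chr5:111496033-111512590, minus strand), a soluble carrier that moves cholesterol between membranes, rose in all 4 groups. It averaged 31.8 ± 1.35 CPM in NC, 58.7 ± 11.5 (EUC), 50 ± 8.61 (EPL), 58.2 ± 3.05 (SUC) and 53.4 ± 7.22 (SPL), and no BEV library overlapped NC. STARD4 rose 1.84-fold in EUC (log2 fold change 0.88, SE 0.14, adjusted p = 8.19e-05), 1.57-fold in EPL (0.65, adjusted p = 0.00146), 1.83-fold in SUC (0.87, adjusted p = 0.000137) and 1.68-fold in SPL (0.75, adjusted p = 0.00055). The EPL call was lost without EPL replicate 3 (adjusted p = 0.0134).

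When the mean of EUC and EPL was set against the mean of SUC and SPL, 5 of the 30 genes differed (ABCA1, INSIG1, MYLIP, SCD and MSMO1), against 3.87% of all tested genes. The first 3 were higher with *E. coli* BEVs (2.87% of all tested genes) and the last 2 lower (1%). The difference was largest for ABCA1, which was higher with *E. coli* BEVs by 1.19 on the log2 scale (95% confidence interval 0.87 to 1.5, adjusted p = 6.67e-05), with no overlap between the libraries. INSIG1 was higher by 0.53 (0.38 to 0.69, adjusted p = 0.000171), although SPL replicate 3 lay above EPL replicate 3. MYLIP was 0.52 higher with *E. coli* BEVs (0.31 to 0.73, adjusted p = 0.00275), and its SUC libraries overlapped the *E. coli* groups. The MYLIP call was lost without EUC replicate 2 or SPL replicate 2 (adjusted p up to 0.0125).

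SCD and MSMO1 differed in the other direction. SCD was lower with *E. coli* BEVs, with a difference of -0.40 (95% confidence interval -0.58 to -0.22, adjusted p = 0.00671). MSMO1 had a difference of -0.46 (-0.66 to -0.25, adjusted p = 0.00636), and its EPL libraries overlapped SUC. The SCD call was lost in 9 of the 15 fits without 1 library, those without any NC or SPL library, EUC replicate 2, or SUC replicate 1 or 2 (adjusted p up to 0.0269). The MSMO1 call was lost in 9 as well, without NC replicate 1, EUC replicate 1 or 2, EPL replicate 2 or 3, SUC replicate 2 or 3, or SPL replicate 1 or 3 (adjusted p up to 0.0223). The count of 5 was 2 without EUC replicate 2, and it was 3 without NC replicate 1, SUC replicate 2 or any 1 of the SPL libraries. Without the 3 libraries that stood apart it was 7, with IDI1 and FDFT1 added. Calls between species over all genes went from 665 to 1449 in that fit, so the gain is not particular to the members. For the other fatty acid enzymes the difference between species did not pass: FASN had -0.15 (-0.33 to 0.02, adjusted p = 0.398) and ACACA -0.23 (-0.54 to 0.09, adjusted p = 0.514). TM7SF2 (-0.33 to 0.20) and STARD4 (-0.25 to 0.17) had intervals that span 0.

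**Figure D4:**
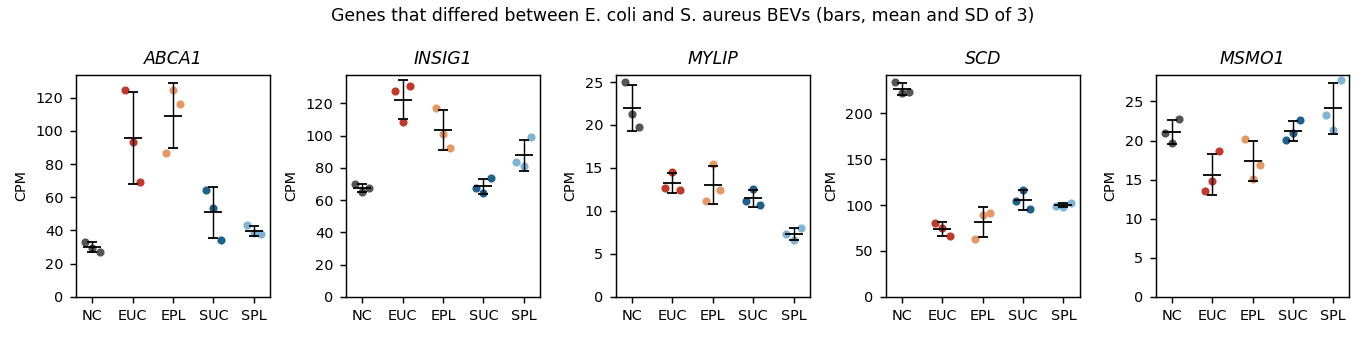
Level of ABCA1, INSIG1, MYLIP, SCD and MSMO1 in each library (CPM, vertical axes starting at 0) by group, with points for libraries and bars for the mean of each group. The *E. coli* libraries of ABCA1 lie at 69.4 CPM or more and its *S. aureus* libraries at 64.6 CPM or less, while for MYLIP the SPL libraries, at 6.63 to 8 CPM, are the lowest.

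The way the BEVs were isolated made no difference that passed for any of the 30 genes. Between EPL and EUC edgeR called 0 members (0% of all tested genes were called), 1 member (INSIG1) had an unadjusted p under 0.05, and DESeq2 also called 0. The interval of the difference EPL minus EUC on the log2 scale was -0.12 to 0.39 for SCD, -0.07 to 0.43 for FASN and -0.25 to 0.62 for ABCA1. Between SPL and SUC edgeR again called 0 members (0.00581% of all tested genes), 4 had an unadjusted p under 0.05, and DESeq2 called 0. Those 4 were MYLIP, INSIG1, SREBF1 and DHCR7. Their SPL and SUC libraries did not overlap, but they were picked by p from the same values, so this adds no support. The share of all tested genes with an unadjusted p under 0.05 was not counted in any isolation comparison. MYLIP differed by -0.65 (95% confidence interval -0.95 to -0.34, adjusted p = 0.523), INSIG1 by 0.36 (0.13 to 0.58, adjusted p = 0.727) and SREBF1 by -0.30 (-0.54 to -0.05, adjusted p = 0.814). A test of whether the isolation difference itself differed between species called 0 members (0% of all tested genes), with 3 at an unadjusted p under 0.05 and 0 called by DESeq2. The intervals above leave room for differences of this size, so the isolations are not shown to act alike.

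Other genes of lipid metabolism, 47 in a list of uptake, esterification, fatty acid and sterol degradation genes, gave 43 that could be tested. Of these 7 rose and 16 fell in EUC, 7 and 15 in EPL, 6 and 10 in SUC, and 5 and 9 in SPL. The shares of all tested genes that rose and fell were 16.5% and 14% in EUC, 16% and 13.2% in EPL, 12.4% and 9.15% in SUC, and 13.3% and 10.6% in SPL. The 7 that rose in EUC were 16.3% of the list, at the level of all genes, and the 16 that fell were 37.2%. Among the 16 fatty acid and glycerolipid genes, 4 rose and 6 fell in EUC, and 3 rose and 3 fell in SPL. Of the 13 genes of lipoprotein uptake and processing, 1 rose and 7 fell in EUC, and 1 rose and 5 fell in SPL. The 4 genes of the list that were DEGs in every BEV group were ACSL1, ME1, CYP27A1 and ERLIN1. ACSL1, which activates long-chain fatty acids for use, rose from 106 ± 4.76 CPM in NC to 591 to 713 CPM in the group means (log2 fold changes 2.56, 2.48, 2.54 and 2.75 in EUC, EPL, SUC and SPL, adjusted p at most 3.38e-13). ME1, the malic enzyme that supplies NADPH for fatty acid synthesis, rose from 54.0 ± 3.18 CPM to 265 to 325 CPM (2.59, 2.48, 2.29 and 2.32, adjusted p at most 1.52e-11). ME1 thus rose in the groups where the fatty acid enzymes FASN and SCD fell. CYP27A1, the mitochondrial hydroxylase that makes oxysterols, rose from 2.22 ± 0.37 CPM to 9.45 to 13.8 CPM (2.63, 2.37, 2.08 and 2.47, adjusted p at most 3.91e-07). ERLIN1, a protein of the endoplasmic reticulum that takes part in the degradation of sterol-regulated enzymes, fell from 154 ± 4.33 CPM to 61.9 to 74.4 CPM (-1.18, -1.31, -1.05 and -1.17, adjusted p at most 1.51e-07).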

How the data were processed

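RNA of 15 THP-1 libraries (NC, EUC, EPL, SUC and SPL, n = 3 each, grouped by the labels) was prepared with a NEB Ultra kit and sequenced as paired-end reads of 150 bases. The values used are raw counts per gene, deposited by the authors as 1 combined table. The submitters' processing notes name FastQC 0.11.5, HISAT2 2.1.0, StringTie 1.3.3b, DESeq 1.28.0, featureCounts and hg38, with the annotation release and strand setting not given in the sources used here. Reads of overlapping genes could therefore not be separated.

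Genes with enough counts for edgeR's filterByExpr (17198 of 60286) were fitted in edgeR 4.0.16 (R 4.3.3) with TMM scaling and the quasi-likelihood test, all 5 groups in 1 model, a prior count of 2, and Benjamini-Hochberg adjustment over all tested genes. The threshold of a call was an adjusted p of 0.01, and DEGs were also to reach a log2 fold change of 1 or -1, as in the study. Values in every library were given for members that were DEGs in at least 1 BEV group or were called between species or isolations, and the other members by mean, range and count; related genes were named where they were DEGs in all 4 BEV groups. The 30 members, the lists of related and marker genes and the motifs were chosen with earlier results of these data known. The script was tested on simulated counts. Positions and exon lengths are from GENCODE v44 and upstream sequences from RefSeq. Depth was 14399421 to 16637345 counted reads per library, and the spread of a gene between libraries of a group (common biological coefficient of variation) was 0.118. No 2 libraries of a group agreed within sampling noise (lowest chi-square per degree of freedom 2.15). Alternatives were DESeq2 1.42.0, its size factors in edgeR, no filter, only the groups compared, a replicate block, and each library left out; the fit without 3 libraries and the length and GC offsets were chosen after seeing the data.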

Additional observations from a re-analysis of the deposited data

Results flagged for a closer look

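The effect against NC differed between *E. coli* and *S. aureus* BEVs, by the test of the difference itself, for 5 members. The difference on the log2 scale was 1.19 for ABCA1, 0.53 for INSIG1, 0.52 for MYLIP, -0.40 for SCD and -0.46 for MSMO1. The dose was 1 μg/mL for *E. coli* and 10 μg/mL for *S. aureus* BEVs, so species and dose cannot be told apart in these values. Of the 5, ABCA1 and INSIG1 kept the call in all 15 fits that left out 1 library.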

How the results depend on the processing

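Of the 54 member values that were called, 35 kept the call whichever library was left out, and none reversed in 1188 checks over all alternatives (1064 unchanged in call, 124 no longer past the threshold, 109 of these from leaving out 1 library). Against counts of 4 rising, 11 falling and 4 DEGs in EUC, leaving out 1 library gave 4, 8 to 12, and 4 to 5. In EPL it gave 3 to 4, 8 to 13, and 2 to 4. In SUC the ranges were 1 to 3 rising, 5 to 9 falling and 1 to 2 DEGs, and in SPL 1 to 4, 5 to 9, and 3 to 4. The 5 genes called between species became 2 to 7. Isolation comparisons gave 0 calls under every alternative. The count rising in SUC (1) was 2 under DESeq2 and 2 without the filter on low counts. A fit of only the groups compared gave 3 rising in SUC, 6 rising in SPL (against 3) and 3 between species. Length and GC offsets gave 2 DEGs in EUC, in EPL and in SPL, and 5 rising in SUC and in SPL. The fit without the 3 libraries that stood apart gave 4 rising, 12 falling and 2 DEGs in SUC, and 6 rising in SPL. In that fit calls over all genes also grew, from 3697 to 5110 in SUC and from 4114 to 6181 in SPL. The cause of these shifts was not tested.

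With a replicate block, 2 members rose in SUC (against 1), and the calls were 17, 15, 9 and 11 in EUC, EPL, SUC and SPL and 4 between species, where SCD was lost. In SUC the call of NR1H3 was lost. The labels do not say that a number marks a shared batch. Deviations of libraries of the same number had r from -0.45 to 0.52 over 30 pairs, 7 over 0.1. Those of libraries of other numbers had r from -0.48 to 0.49. Of the 15 libraries, 7 correlated best with one of their own number. Whether the numbers mark a shared batch was not tested. In a single run of simulated counts of the EUC comparison, 50 genes drawn at random were changed for each fold. Recovered were 30% of genes raised 1.5-fold, 86% of those raised 2-fold and 64% of those lowered to 0.5 of their level. Changes of members that were not called could therefore have been missed. The genes differed between folds and were not matched to the members in level, so these shares are not the recovery of the members. ABCG1 and CYP51A1 had few counts and wide intervals.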
